A study of Bos taurus with 20 samples.

Results

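MX1, MX2 and ISG15 are interferon-stimulated genes, and their transcripts were followed here in 20 whole cattle conceptuses. As embryos, 10 of these had received the cytokine IL6, in recombinant bovine form, and 10 only its carrier. The members were set by identifier: ENSBTAG00000030913 for MX1, ENSBTAG00000008471 for MX2 and ENSBTAG00000014707 for ISG15. Each lay on the chromosome at which it was to be found, so all 3 of the 27607 genes in the files were used. Embryos made by fertilisation in vitro received IL6 at 100 ng/ml, or the carrier SOF-BE1, on day 5 and stayed in those drops until blastocysts were collected on day 7.5. The groups were 4 tubular IL6 conceptuses (2 males, 2 females), 6 ovoid IL6 conceptuses (2 males, 4 females), 4 tubular controls (3 males, 1 female) and 6 ovoid controls (3 males, 3 females). No source used here gives the age of a conceptus at recovery or the cow that carried it. The measurement was ribosome-depleted RNA sequencing with 1 library per conceptus, so fewer cells of a type and less RNA per cell cannot be told apart in it.

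Interferon tau is a type I interferon that the trophectoderm of ruminant conceptuses secretes, and it is the signal by which the mother recognises the pregnancy. Type I interferons bind a receptor on the cell surface, and the signal switches on a set of interferon-stimulated genes. MX1 and MX2 are such genes and encode dynamin-like GTPases that restrict viruses. ISG15 is another and encodes a ubiquitin-like protein that is attached to other proteins. In cattle all of them are best known as responses of the endometrium and of blood leukocytes to early pregnancy, and the question here is how far the conceptus carries their transcripts itself.

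On ARS-UCD1.2, MX1 lies on chromosome 1 from 141677687 to 141706496 on the plus strand, with 14 merged exons of 2883 bases. MX2 lies beside it on the same strand, from 141621165 to 141658223, with 15 merged exons of 4238 bases and 19463 bases between the genes. ISG15 lies on chromosome 16 from 51464069 to 51465107 on the minus strand, with 2 merged exons of 602 bases. No other annotated gene overlaps any of the members (0 for each). MX1 and MX2 are paralogues, and how reads that align to both were treated before counting is not known, so their split is uncertain to that extent. The RefSeq table of ARS-UCD2.0 places MX2 next to MX1 on chromosome 1, and ISG15 between AGRN and HES4 on chromosome 16.

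Titles open with a code that several conceptuses share and whose meaning the labels do not give, called the title code here. Codes c6186 (6 conceptuses) and c9007 (4) hold IL6 conceptuses, and codes c201 (4), c5036 (4) and c8086 (2) hold controls. Treatment is nested in title code, so an effect of IL6 and a difference between codes cannot be told apart. Library totals ran from 2298491 to 13940103 counts in 19 libraries. The remaining library, ovoid control replicate 3 of c201, had 329666 counts and stood apart from the rest. Whether its RNA came from conceptus tissue, as labelled, could not be checked, because no tissue marker could be matched to the identifiers. It had a count in 15567 genes, against 17623 to 19937 in the others, and its median Spearman correlation with the other libraries was 0.6246, against 0.876 to 0.970. Each comparison is therefore given with and without it.

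In most conceptuses the members were not among the highly expressed genes. Levels were set between genes as RPKM, counts scaled for exon length and library total, and placed by the share of the 27607 genes with a lower RPKM in the same library, undetected genes included. In the 13 conceptuses outside c6186 and other than ovoid control replicate 3, MX1 ranged from 38.4% to 65.2% on that scale, ISG15 from 38.4% to 70.0%, and MX2 from 0% to 45.0%. In the 6 conceptuses of c6186, MX1 stood above 63.5% to 88.6% of genes, ISG15 above 63.2% to 88.8% and MX2 above 42.8% to 55.2%. In ovoid control replicate 3, MX1 stood above 99.2%, MX2 above 99.1% and ISG15 above 99.2% of genes, with only 212, 246 and 217 genes higher. The order per length was MX1 and ISG15 near each other and MX2 last: over the 19 other libraries the median ratio of RPKM was 0.980 for ISG15 to MX1 (0.319 to 4.79) and 0.0454 for MX2 to MX1 (0 to 1.36). Both highest ratios are those of ovoid control replicate 4, which had 2 MX1 counts. In ovoid control replicate 3 the ratio was 0.984 for ISG15 to MX1, close to the median of the others. For MX2 to MX1 it was 0.891, far above the median of the others and exceeded only in ovoid control replicate 4.

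**Figure D1:**
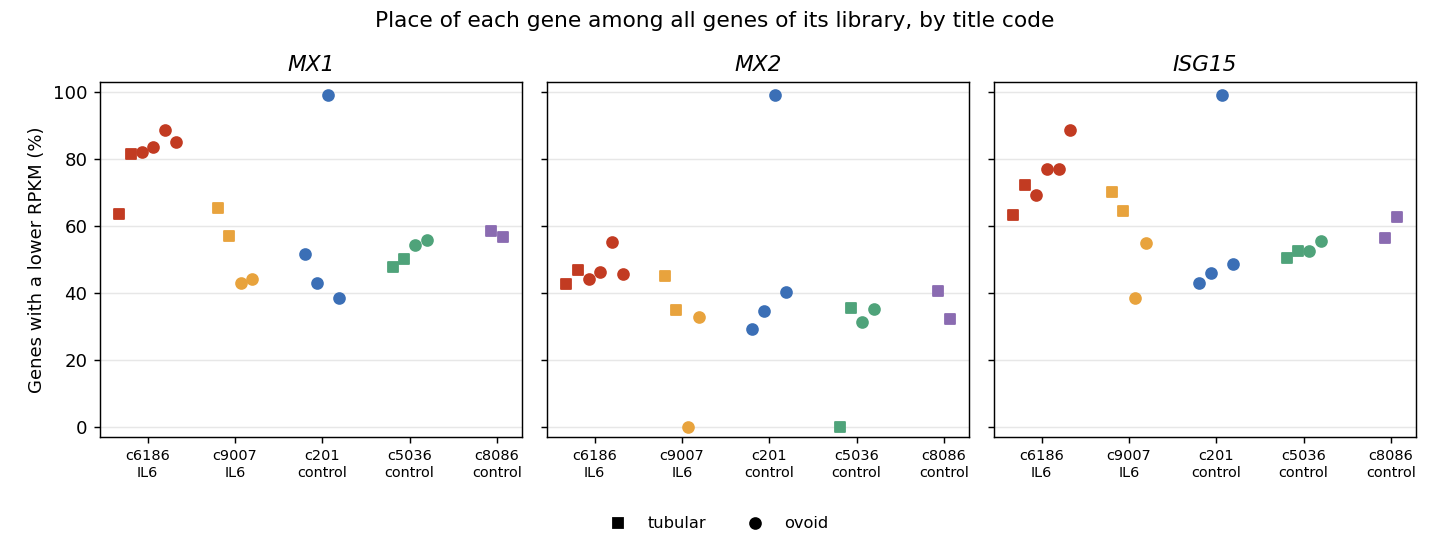
Share of genes with a lower RPKM in the same library (percent, vertical axis) for MX1, MX2 and ISG15, with 1 point per conceptus, grouped by title code along the horizontal axis; squares are tubular and circles ovoid conceptuses. The 6 conceptuses of c6186 lie at 63.5% to 88.6% for MX1, and a single c201 control, ovoid control replicate 3, lies at 99.2%.

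MX1 was compared between libraries as CPM, counts scaled to a common library total with TMM factors. The 4 tubular IL6 conceptuses measured 13.2, 51.4, 16.1 and 6.27 CPM, and the 4 tubular controls 2.26, 2.35, 6.57 and 5.81 CPM. Of these IL6 values, 3 exceed all tubular controls, and the lowest lies just under the highest control, so the groups overlap. Ovoid IL6 conceptuses ran from 0.961 to 92.9 CPM with a median of 57.5 CPM, and ovoid controls from 0.413 to 953 CPM with a median of 4.17 CPM. Within ovoid IL6 the 4 conceptuses of c6186 had 53.5 to 92.9 CPM and the 2 of c9007 had 0.961 and 1.02 CPM. Among ovoid controls, 5 lay at 0.413 to 4.74 CPM and replicate 3 at 953 CPM, which rests on 326 counts. Its share before scaling has an exact 95% Clopper-Pearson interval of 884 to 1102 CPM without TMM factors, which covers counting error only.

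MX2, the less abundant of the paralogues, had 0 to 27 counts in 19 libraries. Tubular IL6 conceptuses measured 1.10, 2.85, 2.29 and 0.418 CPM, against 0, 0.336, 0.763 and 0.0922 CPM in tubular controls. Ovoid IL6 conceptuses ran from 0 to 7.55 CPM (median 2.09 CPM) and ovoid controls from 0.121 to 1249 CPM (median 0.400 CPM). The groups overlap in both shapes. The value of 1249 CPM is ovoid control replicate 3, with 427 counts, and the next control had 0.826 CPM. The 2 libraries with no MX2 count were ovoid IL6 replicate 5 and tubular control replicate 1, in which a count of 0 allows up to 0.288 and 0.282 CPM (3 counts). Values of 1 to 5 counts, which most controls had, carry wide counting intervals.

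ISG15 measured 2.65, 5.70, 5.16 and 3.01 CPM in tubular IL6 conceptuses, against 0.659, 0.671, 1.07 and 2.49 CPM in tubular controls. With TMM factors all 4 IL6 values lay above all 4 control values, as was so for 2.39% of the 14875 genes tested. The closest pair was tubular IL6 replicate 1 (2.65 CPM, 12 counts) and tubular control replicate 4 (2.49 CPM, 27 counts). Without TMM factors their order was reversed, at 2.477 and 2.496 CPM, so the groups then overlap. Ovoid IL6 conceptuses ran from 0.0961 to 18.2 CPM (median 6.20 CPM) and ovoid controls from 0.242 to 196 CPM (median 0.596 CPM). Replicate 3 of the ovoid controls again gave the top value, from 67 counts, and the other controls reached at most 0.963 CPM.

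**Figure D2:**
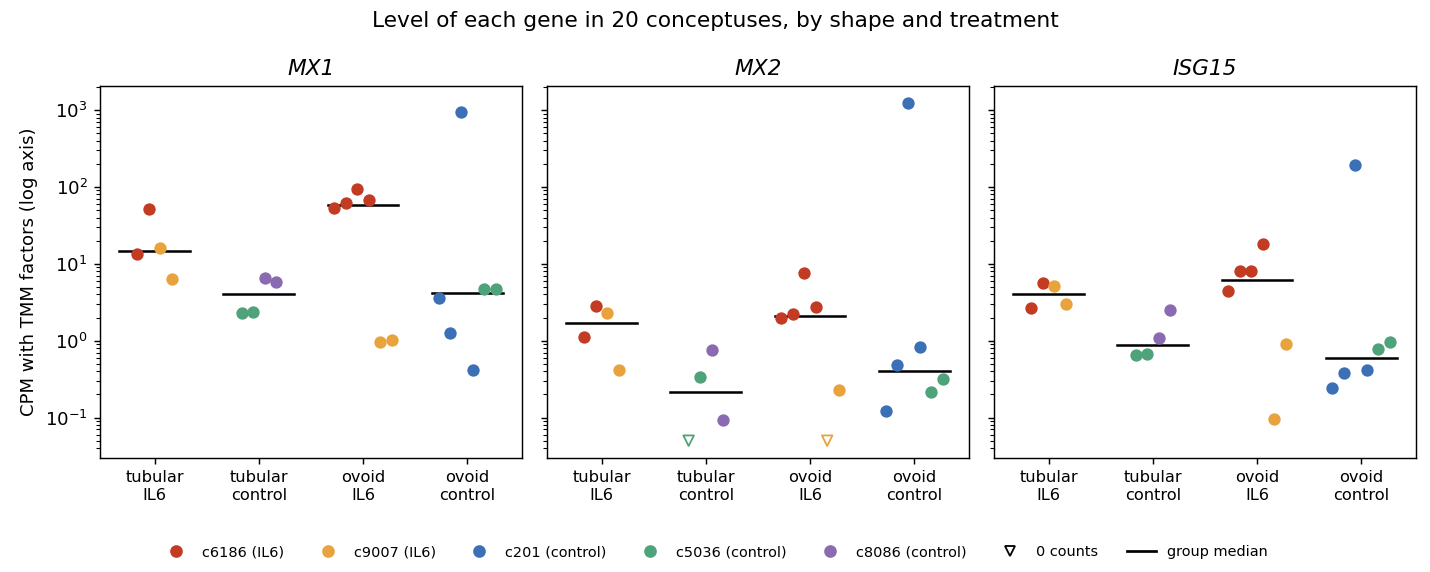
CPM with TMM factors (log axis) of MX1, MX2 and ISG15 in each conceptus, by shape and treatment, coloured by title code; bars are group medians and open triangles libraries with 0 counts. Ovoid control replicate 3 lies at 953, 1249 and 196 CPM, and the red points of c6186 lie above all other controls in each panel. Without TMM factors the lowest ISG15 value of c6186 falls below the highest of those controls.

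All 3 members passed the filter on low counts, and their comparisons are contrasts of a single model fitted to 14875 genes. In ovoid conceptuses IL6 was set against control. With all 20 libraries MX1 averaged 46.1 ± 37.4 CPM with IL6 and 161 ± 388 CPM in controls (SD, n = 6 each), and its log2 fold change was -0.65 ± 1.63 (SE), with an edgeR adjusted p of 0.977. MX2 had a log2 fold change of -5.26 ± 2.20 (edgeR adjusted p = 0.530) and ISG15 one of -1.27 ± 1.52 (edgeR adjusted p = 0.902). Of the members, 0 were called by edgeR at an adjusted p under 0.05, as were 0% of the genes tested. MX2 alone had an unadjusted p under 0.05, which 8.34% of genes had. DESeq2 called 0 members, against 0.589% of genes (10.2% at an unadjusted p under 0.05), and gave no p-value for MX2 and ISG15 in this or any other comparison of groups or of the sexes.

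Leaving out ovoid control replicate 3 turned the sign of all 3. MX1 then averaged 46.1 ± 37.4 CPM with IL6 (SD, n = 6) and 2.95 ± 2.01 CPM in controls (SD, n = 5), and its log2 fold change was 3.80 ± 0.999 (SE), with an edgeR adjusted p of 0.241. ISG15 averaged 6.62 ± 6.60 CPM with IL6 (SD, n = 6) and 0.556 ± 0.302 CPM in controls (SD, n = 5), with a log2 fold change of 3.38 ± 0.86 (edgeR adjusted p = 0.241). MX2 had a log2 fold change of 2.29 ± 0.96 (edgeR adjusted p = 0.420). Of 3 members, 3 had an unadjusted p under 0.05, against 10.1% of 14738 genes, and 0 passed after adjustment, against 0% of genes. With title code as a random block in limma, all 20 libraries gave 1.395 for MX1, -0.22 for MX2 and 1.18 for ISG15 (limma adjusted p = 0.9999 for each). In ovoid conceptuses the IL6 mean itself rests on c6186. Without c6186 and without ovoid control replicate 3, 2 ovoid IL6 conceptuses remained. The log2 fold change was then -1.95 ± 0.89 for MX1 (edgeR adjusted p = 0.779) and -0.39 ± 0.92 for ISG15 (edgeR adjusted p = 0.940). MX2 did not pass the filter. MX1 had an unadjusted p under 0.05 there, and the share of all genes with such a p was not counted in that fit.

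In tubular conceptuses the sign of the IL6 comparison was the same with and without ovoid control replicate 3. That library is in neither tubular group. It enters only through the filter, scaling, sex term and shared estimate of spread, so the kept sign is no check of this comparison. MX1 averaged 21.8 ± 20.2 CPM with IL6 and 4.25 ± 2.26 CPM in controls (SD, n = 4 each), and with all 20 libraries its log2 fold change was 1.63 ± 1.78 (SE), with an edgeR adjusted p of 0.9997. MX2 had one of 1.48 ± 3.02 and ISG15 one of 1.08 ± 1.68 (edgeR adjusted p = 0.9997 for both). In the fit without ovoid control replicate 3 the values were 2.20 ± 1.10 for MX1, 2.21 ± 1.10 for MX2 and 1.60 ± 0.92 for ISG15 (edgeR adjusted p = 0.831 for each). In both fits 0 of 3 members were called, against 0% of genes, and 0 had an unadjusted p under 0.05, against 2.51% of genes with all libraries and 5.08% without replicate 3. DESeq2 gave an unadjusted p of 0.323 for MX1 with all libraries and called 0% of genes, with 4.31% at an unadjusted p under 0.05. The standard errors exceed the differences with all libraries and lie below them without ovoid control replicate 3. With c6186 left out as well, MX1 was at 1.22 ± 0.70 and ISG15 at 1.62 ± 0.71 (edgeR adjusted p = 0.929 for both). ISG15 then had an unadjusted p under 0.05, but the share of all genes with such a p was not counted in that fit.

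Averaged over both shapes, MX1 had a log2 fold change of 0.49 ± 1.10 (SE) with IL6, at an edgeR adjusted p of 0.912, while MX2 had one of -1.89 ± 2.04 (edgeR adjusted p = 0.777) and ISG15 one of -0.09 ± 1.14 (edgeR adjusted p = 0.990). With ovoid control replicate 3 left out these became 2.998 ± 0.75 for MX1, 2.25 ± 0.74 for MX2 and 2.49 ± 0.64 for ISG15 (edgeR adjusted p = 0.128, 0.171 and 0.128). All 3 then had an unadjusted p under 0.05, against 16.8% of genes, and 0 passed after adjustment, against 0% of genes. With all 20 libraries 0 of 3 had such a p, against 10.7% of genes, and 0% of genes were called. DESeq2 called 0.98% of genes and had 14.1% at an unadjusted p under 0.05, but did not call MX1 (unadjusted p = 0.758). Leaving out c6186 together with ovoid control replicate 3 brought MX1 to -0.36 ± 0.59 (edgeR adjusted p = 0.856) and ISG15 to 0.61 ± 0.63 (edgeR adjusted p = 0.755). The 4 conceptuses of c9007 (0.961 to 16.1 CPM of MX1) overlap the 9 controls other than that library (0.413 to 6.57 CPM).

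**Figure D3:**
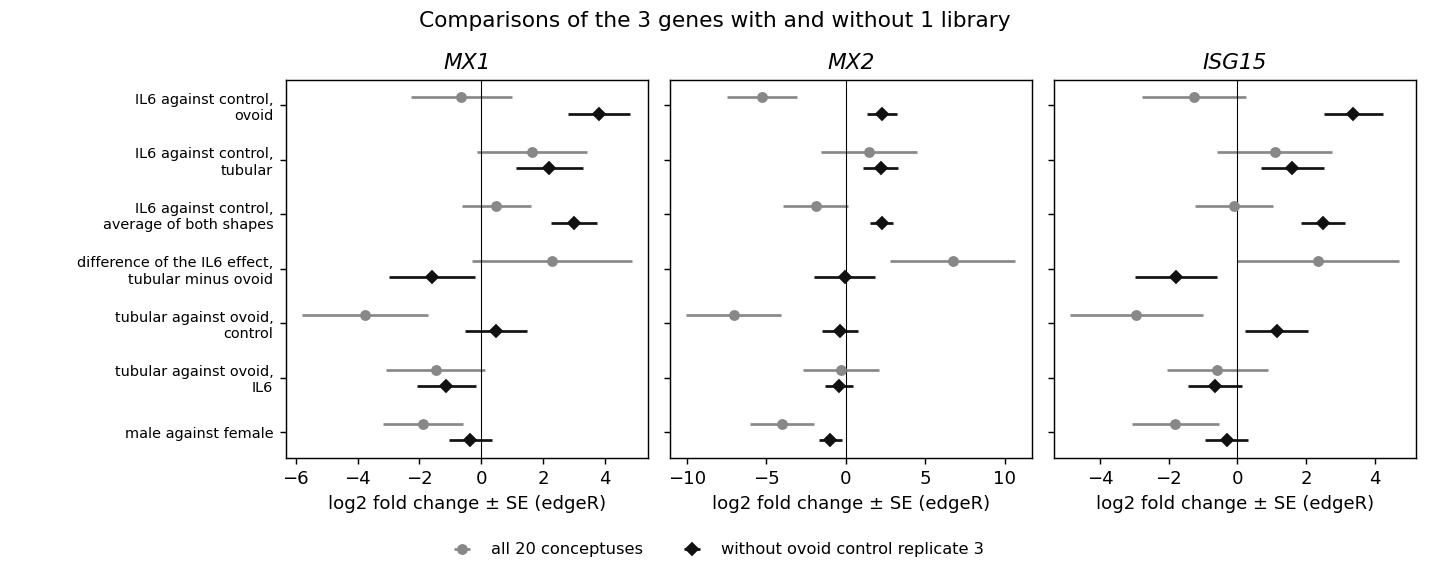
Log2 fold changes with their standard errors (edgeR, horizontal axis) of MX1, MX2 and ISG15 for each comparison, with all 20 conceptuses (grey circles) and without ovoid control replicate 3 (black diamonds). In ovoid conceptuses MX1 moves from -0.65 to 3.80 when that library is left out. In tubular conceptuses, to which that library does not belong, MX1 is at 1.63 and 2.20.

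Tubular minus ovoid, the IL6 effects differed by 2.28 ± 2.58 (SE) on the log2 scale for MX1, 6.74 ± 3.93 for MX2 and 2.35 ± 2.37 for ISG15 (edgeR adjusted p = 1 for each). Leaving out ovoid control replicate 3 made it -1.60 ± 1.38 for MX1, -0.08 ± 1.91 for MX2 and -1.79 ± 1.199 for ISG15 (edgeR adjusted p = 0.9998 for each). In neither fit did a member have an unadjusted p under 0.05 (0 of 3, against 0.632% and 0.719% of genes), and 0% of genes were called. DESeq2 also called 0%, with 0.973% at an unadjusted p under 0.05. With c6186 left out as well, the difference was 3.17 ± 1.08 for MX1 and 2.01 ± 1.11 for ISG15 (edgeR adjusted p = 1 for both). MX1 then had an unadjusted p under 0.05, but the share of all genes with such a p was not counted in that fit. The sign of the difference thus turned on ovoid control replicate 3 and again on c6186.

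Shape was compared within each treatment. Among controls, tubular against ovoid gave log2 fold changes of -3.75 ± 2.03 for MX1, -7.04 ± 2.98 for MX2 and -2.94 ± 1.93 for ISG15 (edgeR adjusted p = 0.9998 for each). MX2 had an unadjusted p under 0.05, against 1.64% of genes, and 0% of genes were called. DESeq2 gave MX1 an unadjusted p of 0.00632 there, which under 0.05 held for 2.75% of genes, and called 0% of genes. The same comparison gave 0.47 ± 1.01 for MX1, -0.36 ± 1.11 for MX2 and 1.14 ± 0.91 for ISG15 once ovoid control replicate 3 was left out (edgeR adjusted p = 0.9998 for each), and 0 of 3 had an unadjusted p under 0.05, against 1.05% of genes. Among IL6 conceptuses, tubular against ovoid gave -1.47 ± 1.59 for MX1, -0.31 ± 2.39 for MX2 and -0.59 ± 1.47 for ISG15 (edgeR adjusted p = 1 for each), with 0 of 3 at an unadjusted p under 0.05, against 2.80% of genes (DESeq2 4.46%). In the fit that left out ovoid control replicate 3 they were -1.13 ± 0.95, -0.44 ± 0.89 and -0.64 ± 0.78, in the same order (edgeR adjusted p = 0.852, 0.922 and 0.878). There 0 of 3 had an unadjusted p under 0.05, against 4.79% of genes, and 0% of genes were called in either fit or by DESeq2. With title code as a random block in limma the sign turned, to 1.03 for MX1, 1.95 for MX2 and 1.32 for ISG15 (limma adjusted p = 0.9345 for each). That fit also replaces the edgeR model of the counts, and the part of the block alone was not tested.

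Within title codes the shapes did not order in one way. In c9007 the 2 tubular conceptuses had 16.1 and 6.27 CPM of MX1, against 0.961 and 1.02 CPM in the 2 ovoid ones, and ISG15 had 5.16 and 3.01 CPM, against 0.0961 and 0.911 CPM. MX2 also lay higher in both tubular conceptuses of c9007, at 2.29 and 0.418 CPM, against 0 and 0.228 CPM in the ovoid ones. With 2 conceptuses a side, 23.3% of all genes tested were likewise higher without overlap in c9007. In c6186, with TMM factors, the 2 tubular conceptuses had 13.2 and 51.4 CPM of MX1. The 4 ovoid ones lay higher, at 53.5, 61.6, 92.9 and 66.8 CPM, and 5.36% of genes were likewise lower in tubular ones without overlap. Without TMM factors the shapes overlapped in MX1, at 51.9 CPM in tubular IL6 replicate 2 and 48.5 CPM in ovoid IL6 replicate 1. MX2 and ISG15 overlapped between the shapes of c6186 with TMM factors. In c5036 MX1 measured 2.26 and 2.35 CPM in tubular and 4.74 and 4.71 CPM in ovoid conceptuses, and ISG15 0.659 and 0.671 CPM in tubular and 0.779 and 0.963 CPM in ovoid ones, while 15.1% of genes were lower without overlap in that code. These are descriptions of 2 to 4 conceptuses, and the difference of the shape effect between codes was not tested.

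The codes themselves were compared within treatment. Of the IL6 codes, c6186 measured 13.2 to 92.9 CPM of MX1 (median 57.5 CPM, n = 6) and c9007 0.961 to 16.1 CPM (median 3.64 CPM, n = 4). Of the control codes, c201 without ovoid control replicate 3 had 0.413 to 3.62 CPM (n = 3), c5036 2.26 to 4.74 CPM (n = 4) and c8086 5.81 and 6.57 CPM. By medians c6186 stood first. The range of c9007 overlaps the low end of c6186 and the range of each control code. All 6 conceptuses of c6186 exceeded the 9 controls other than ovoid control replicate 3 in MX1 (lowest 13.2, against at most 6.57 CPM), in MX2 (lowest 1.10, against at most 0.826 CPM) and in ISG15 (lowest 2.65, against at most 2.49 CPM). Of all genes tested, 2.70% were higher without overlap in that comparison, which was chosen after the values were seen. MX2 did not pass the filter once c6186 and ovoid control replicate 3 were left out. Its high values in c6186 thus helped it to be tested, and that share does not allow for this.

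A joint edgeR test of the code differences within each treatment gave an adjusted p of 0.347 for MX1, 0.253 for MX2 and 0.452 for ISG15 with all 20 libraries, so 0 of 3 members were called, against 0.0807% of genes. MX1 and MX2 had an unadjusted p under 0.05, against 13.8% of genes. Left to 19 libraries, without ovoid control replicate 3, the edgeR adjusted p was 0.0895 for MX1, 0.312 for MX2 and 0.217 for ISG15, with 2.43% of genes called. There MX1 and ISG15 had an unadjusted p under 0.05, against 19.3% of genes. DESeq2 called MX2 with all libraries (adjusted p = 0.0253, against 7.87% of genes called and 21.6% at an unadjusted p under 0.05). Without ovoid control replicate 3 it called MX1 (adjusted p = 0.00395, against 10.7% called and 23.4% at an unadjusted p under 0.05). There the DESeq2 adjusted p of MX2 was 0.238. In edgeR with all libraries, MX2 differed from c201 by -8.69 in c5036 and -9.61 in c8086 (log2). Without ovoid control replicate 3 these differences were -1.16 and -1.18. The contrast of c6186 against c9007 alone, chosen after the values were seen, was 3.60 ± 1.71 on the log2 scale for MX1 with all libraries (edgeR adjusted p = 0.228), larger than in 99.6% of genes. It called 0 of 3 members, against 3.09% of genes, and 0 had an unadjusted p under 0.05, against 22.2%. With that control library left out the contrast was 3.26 ± 0.86 for MX1 (edgeR adjusted p = 0.0246), 2.49 ± 0.88 for MX2 (edgeR adjusted p = 0.0720) and 1.92 ± 0.81 for ISG15 (edgeR adjusted p = 0.126). It called 1 of 3 members, against 13.3% of genes, and 3 had an unadjusted p under 0.05, against 29.8%. Library totals moved with the codes, at 2298491 to 6262473 counts in c6186 and 8589036 to 11366747 in c9007, and the part of depth in these differences was not tested.

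Sex was a term of the model. The 10 males had 1.25 to 61.6 CPM of MX1 (median 5.26 CPM) and the 10 females 0.413 to 953 CPM (median 11.3 CPM), so the sexes overlap. Male against female gave log2 fold changes of -1.88 ± 1.30 for MX1, -4.01 ± 1.98 for MX2 and -1.80 ± 1.26 for ISG15 (edgeR adjusted p = 0.831, 0.750 and 0.838). Without that control library, which is labelled female, they were -0.35 ± 0.70, -0.96 ± 0.71 and -0.31 ± 0.62 (edgeR adjusted p = 0.935, 0.733 and 0.935). Of the members 0 were called in either fit, against 0.0538% and 0.156% of genes, and 0 had an unadjusted p under 0.05, against 6.88% and 9.03%. DESeq2 called 0.562% of genes, with 9.77% at an unadjusted p under 0.05, and did not call MX1 (unadjusted p = 0.0733).

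The members varied more between conceptuses of one group than most genes of any level. The genes compared were not matched for level, and each group mixes title codes. The biological coefficient of variation, the square root of the edgeR dispersion, was 1.41 for MX1, 1.70 for MX2 and 1.38 for ISG15, against a median of 0.358 over all genes tested, and higher than in 99.6%, 99.9% and 99.4% of them. Leaving out ovoid control replicate 3 gave 0.946, 0.907 and 0.820, still above 97.8%, 97.1% and 95.4% of genes. In those 19 libraries, title code accounted for 77.7% of the variance of log2 CPM of MX1, 62.9% for MX2 and 68.4% for ISG15, against a median of 31.0% over genes. With all 20 libraries these shares were 37.9% for MX1, 25.9% for MX2 and 24.2% for ISG15, against a median of 26.1%. The 4 groups of shape and treatment accounted for 34.2%, 33.1% and 42.8% in the 19 libraries, against a median of 18.6%. In all 20 they accounted for 11.2%, 8.97% and 9.37%, against a median of 14.1%. Treatment is nested in title code, so the share of the codes includes any difference between IL6 and control. There are also more codes than groups, so the shares of codes and groups are not on equal terms.

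The members moved together from conceptus to conceptus. Across the 20 conceptuses, log2 CPM of MX1 and ISG15 had a Pearson r of 0.937 and a Spearman rho of 0.934 (permutation p = 1e-05 for both, the smallest that 100000 permutations can give). For MX1 and MX2 r was 0.840 and rho 0.783 (permutation p = 1e-05 and 1e-04), and for MX2 and ISG15 r was 0.891 and rho 0.809 (permutation p = 1e-05 and 6e-05). Adjusted over the 3 pairs, the highest p was 1e-04. The permutations exchanged all conceptuses freely, so likeness within a title code would make these p-values too small. Without the 2 conceptuses farthest from the median of the first gene, ovoid control replicate 3 and ovoid IL6 replicate 3, r was 0.900, 0.777 and 0.803 in that order of pairs. With the mean of each title code subtracted rho was 0.8286, 0.827 and 0.714. The mean of c201 includes ovoid control replicate 3, and rho within codes was not computed without that library. Its part in these values was not tested. Over all genes the median rho with MX1 was -0.04, and 0.0874% of the 14874 other genes were as close to MX1 as ISG15 was, against 1.11% as close as MX2. Without ovoid control replicate 3 these shares were 0.222% and 1.82%. All of these points share their library totals and scaling between the genes compared.

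**Figure D4:**
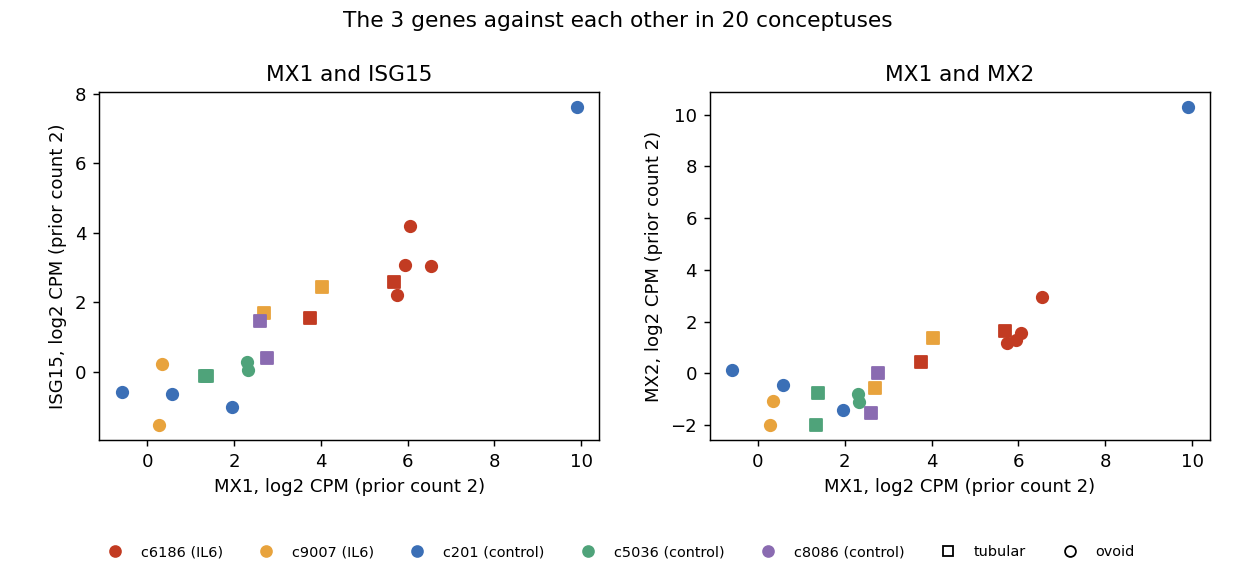
Log2 CPM with a prior count of 2 of ISG15 (left) and MX2 (right) against MX1, with 1 point per conceptus, coloured by title code; squares are tubular and circles ovoid conceptuses. Spearman rho is 0.934 for ISG15 and 0.783 for MX2, and the point at the upper right of each panel is ovoid control replicate 3.

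The genes whose pattern over the 20 conceptuses was most like each member carry no name in the files. Nearest to MX1 were ENSBTAG00000000859 on chromosome 5 (33940564 to 33993305, rho 0.967) and ENSBTAG00000043959 on chromosome 17 (42227069 to 42478276, rho 0.959). Nearest to ISG15 were ENSBTAG00000014548 on chromosome 16 (65831839 to 66012562, rho 0.971) and ENSBTAG00000039861 on chromosome 17 (61363053 to 61371004, rho 0.958). Nearest to MX2 were ENSBTAG00000012387 on chromosome 7 (101896775 to 102084454, rho 0.910) and ENSBTAG00000004585 on chromosome 3 (103567783 to 103700789, rho 0.899). None of these was a member, and without ovoid control replicate 3 their rho stayed between 0.882 and 0.967. ENSBTAG00000014548 measured 10.4 to 62.7 CPM in c6186, 0.865 to 19.4 CPM in the 13 others and 123 CPM in ovoid control replicate 3.

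The genes flanking the MX pair on chromosome 1 had few counts in ovoid control replicate 3. ENSBTAG00000030921 (141551208 to 141617001), on the MX2 side, had 3 counts and ENSBTAG00000009132 (141713171 to 141747814), on the MX1 side, had 1 count in that library, where MX2 had 427 and MX1 326. At this depth those counts stand for 9.10 and 3.03 CPM without TMM factors. In the other conceptuses ENSBTAG00000030921 had a median of 2.59 CPM without TMM factors in c6186 and 0.143 in the 13 others, and ENSBTAG00000009132 had 11.3 and 8.70. In counts, MX1 and MX2 of that library exceeded both flanking genes.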

How the data were processed

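Counts are the authors' raw numbers of fragments over the exons of each gene, from featureCounts 2.0.1 without strand, run on alignments to ARS-UCD1.2 with duplicates removed and with Ensembl release 105, per the file headers. Reads were paired, of 150 nucleotides, per the labels' protocols. The submitters' processing notes name HISAT2, SAMtools and Picard without settings. Removing duplicates can lower counts of abundant short genes. Exon lengths used for RPKM are other values deposited in those files.

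Names of the 3 members came with the choice of genes; 0 of 27607 identifiers matched the RefSeq table, so lists of other interferon pathway genes and of tissue markers could not be counted, and the conceptus label was not checked against markers. Members and lists were chosen with earlier results of these data known. The named genes were the members and, for each, the 2 genes with the highest Spearman correlation.

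Genes were filtered with filterByExpr by group in edgeR 4.0.16 (R 4.3.3) and tested with the quasi-likelihood F test, TMM factors, 4 group terms and a sex term, with Benjamini-Hochberg adjustment at 0.05. Code differences were tested in a model of title code, shape and sex. Standard errors are the log2 fold change over the square root of F. Correlations used log2 CPM with a prior count of 2. The edgeR step was tested on simulated data. Alternatives were RLE factors, DESeq2 1.42.0, other filters, no sex term, each conceptus or title code left out, and title code as a random block in limma 3.58.1. The limma fit used voom, which weights log2 CPM by its precision, in place of the edgeR count model. No voom fit without the block was run, so block and model are not separated in its values. Figures used matplotlib 3.10.9. A library is 1 conceptus, and likeness within a title code would make the p-values for IL6 and for the correlations too small.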

Additional observations from a re-analysis of the deposited data

Results flagged for a closer look

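Of 12 sets looked at (3 genes in 4 groups), 4 held a conceptus far from the others of its group, where the rule flags about 1 in 20 by chance if values are normally distributed, which CPM values need not be. The sets are not independent, since 3 of the 4 rest on a single library. Ovoid control replicate 3 was that conceptus for MX1 (953 CPM, next 4.74 CPM), for MX2 (1249 CPM, next 0.826 CPM) and for ISG15 (196 CPM, next 0.963 CPM). It is also the shallowest library, with 329666 counts, and its part in those levels was not tested. Ovoid IL6 replicate 3 was that conceptus for MX2, at 7.55 CPM from 16 counts, with the next ovoid IL6 conceptus at 2.71 CPM. That library had the lowest total of the IL6 conceptuses, 2298491 counts.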

How the results depend on the processing

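Leaving out ovoid control replicate 3 turned the direction in ovoid conceptuses and of the difference between shapes for all members. It also turned some members in the averaged and control shape comparisons. For MX1 and ISG15 the ovoid direction and the difference turned back when c6186 was left out too. With ovoid control replicate 3 kept, the ovoid direction of MX1 and ISG15 also turned without c9007 and with the random block. Treatment nested in title code limits every IL6 comparison. Counts of 0 to 5 for MX2 in the controls other than that library, and of 1 to 20 for ISG15 in several conceptuses, limit precision. No paired analysis was possible because replicates were numbered in accession order and the labels give the groups no shared replicate number. Title code, which tubular and ovoid conceptuses share in c5036, c6186 and c9007, was used as a random block instead. The likeness between members was kept. Group medians under RLE factors or no factors moved by less than the SD of the group in 24 of 24 cases. That limit is wide: for MX2 in ovoid controls the SD was 510 CPM around a median of 0.400 CPM. Without factors some close values changed order. These were ISG15 of tubular IL6 replicate 1 and tubular control replicate 4, and MX1 of tubular IL6 replicate 2 and ovoid IL6 replicate 1. MX1 of tubular IL6 replicate 4 then lay above tubular control replicate 3 (6.60 against 6.15 CPM). Of the log2 fold changes and code tests of the members under other settings than a left-out conceptus, 213 kept direction and side of the threshold, 14 kept direction but had no p-value from DESeq2, 30 reversed and 3 passed it; the cause was not tested.

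In ovoid conceptuses, IL6 against control was 3.18 for MX1, 2.81 for MX2 and 2.80 for ISG15 (log2) without c201, 0.77 for MX1 and 0.031 for ISG15 without c9007, and 1.395 for MX1, -0.22 for MX2 and 1.18 for ISG15 with title code as a random block (consensus correlation 0.148). Averaged over shapes it was -0.068 without c5036, -3.56 without c6186 and -0.36 without c6186 and ovoid control replicate 3 for MX1. MX2 gave 2.51 without c201 and 0.94 with the random block. ISG15 gave 2.21 without c201, 0.21 without c8086, 0.32 without c9007, 1.54 with the random block and 0.61 without c6186 and ovoid control replicate 3. The difference of the effects, tubular minus ovoid, was -1.03 for MX1, -0.59 for MX2 and -1.19 for ISG15 without c201. Among controls, tubular against ovoid was 0.15 for MX2 and 0.55 for ISG15 without c201, and 0.26 for MX1 and 0.61 for ISG15 with the random block. Among IL6 conceptuses it was 6.09 ± 3.06 (SE) for MX1, 5.37 ± 4.67 for MX2 and 5.77 ± 3.16 for ISG15 without c6186. That fit rests on 2 tubular and 2 ovoid IL6 conceptuses, those of c9007. With the random block it was 1.03, 1.95 and 1.32 in that order.

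Genes called in ovoid conceptuses numbered 86 by DESeq2 and 154 without c9007, against 0. Averaged over shapes they were 143 by DESeq2, 344 without c9007 and 6 without c6186 and ovoid control replicate 3, against 0. Between the sexes they were 82 by DESeq2, 13 with the random block, 3 without c201 or c8086, and 2 without c5036, c6186 or c9007, against 8. For the codes DESeq2 called 1171 genes, and 1581 without ovoid control replicate 3, against 12. Code tests passed the threshold by DESeq2 for MX2 with all libraries (adjusted p = 0.0253), but not without ovoid control replicate 3 (adjusted p = 0.238). Without that library they passed by DESeq2 for MX1 (adjusted p = 0.00395), and in edgeR for MX1 in c6186 against c9007 alone (adjusted p = 0.0246).

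With each conceptus left out in turn, ovoid IL6 against control ranged from -1.27 to 3.80 for MX1, -6.06 to 2.29 for MX2 and -1.85 to 3.38 for ISG15, positive only without ovoid control replicate 3. Averaged over shapes the range was -2.41 to 2.25 for MX2 and -0.37 to 2.49 for ISG15. ISG15 there was also positive without ovoid IL6 replicate 5 or 6, tubular control replicate 4 or tubular IL6 replicate 3. The difference of the effects ranged from -1.60 to 3.03 for MX1, -0.075 to 7.56 for MX2 and -1.79 to 3.15 for ISG15, and tubular against ovoid controls from -4.42 to 0.47 for MX1 and -3.73 to 1.14 for ISG15, each turning only without ovoid control replicate 3. Among IL6 conceptuses tubular against ovoid ranged from -0.99 to 0.76 for MX2, positive without ovoid IL6 replicate 1 or 2 or tubular IL6 replicate 2 or 3, and from -0.89 to 0.093 for ISG15, positive without ovoid IL6 replicate 2. Genes called ranged from 0 to 11 in ovoid conceptuses and 0 to 1 on average, highest without ovoid IL6 replicate 5 in both. They ranged from 5 to 23 between the sexes and from 1 to 358 for the codes, highest without ovoid control replicate 3 in both.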
